A study of Mus musculus with 224 samples.

Results

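The genes described here are 34 genes that mark endothelial cells, the cells that line blood vessels, or that carry the signals by which vessels grow. They were chosen by name: a row of a deposited table belongs to the set when its Ensembl identifier maps to a listed symbol. The soleus muscle table held all 34 among 13637 genes, and the visceral adipose table held all 34 among 16542 genes. The liver table held 30 of the 34 among 12611 genes, without Angpt1, Angpt2, Aplnr and Apln. By role the set comprises 12 junction and surface markers, 5 receptors for vascular endothelial growth factor (VEGF) and its co-receptors the neuropilins, 2 VEGF ligands, 4 genes of the angiopoietin and Tie system, 4 of apelin and adrenomedullin signalling, 3 transcription factors and 4 secreted or capillary proteins.

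RNA of liver, soleus (a slow postural muscle of the hind limb) and visceral fat was sequenced in 72 mice. Animals of 3 inbred strains, DBA/2J, BALB/cJ and C57Bl/6J, ate either a diet rich in fat (HFD) or regular chow (RC) until tissue was taken. The labels give day 5, 13 or 33 for this, whereas the design text gives the last time as 13 days. Each tissue had 18 groups of 4 animals, so 36 HFD animals stood against 36 RC animals, and 12 against 12 within a strain. No genetic change, drug or age beyond strain, diet and day is given in the labels used here, and RNA was extracted from tissue with no sorting of cells stated.

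Endothelial cells are joined by VE-cadherin (Cdh5), PECAM-1 (Pecam1) and claudin-5 (Cldn5), and they read VEGF through the tyrosine kinase receptors KDR, FLT1 and FLT4, with neuropilins as co-receptors. Angiopoietins act on the receptor TEK (Tie2), with TIE1 beside it, and stabilise or loosen vessels. In muscle, capillaries deliver oxygen and fatty acids to the fibres. In liver most capillaries are sinusoids, whose fenestrated endothelium differs from that of other organs. In fat, capillary endothelium carries the lipase anchor GPIHBP1.

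Read totals per library lay between 1.81e+07 and 3.20e+07 for liver, between 1.99e+07 and 3.34e+07 for muscle and between 1.98e+07 and 4.68e+07 for adipose tissue. Values are CPM, a gene's reads scaled to a common library size, and log2 fold changes are HFD minus RC, or the strain named before the minus sign minus the one after it, each with its standard error (SE). A gene was called when its limma p, adjusted over all tested genes by the Benjamini-Hochberg method, was under 0.05; every member in a table passed the filter on low values. Several libraries stood apart. In 2 adipose libraries labelled BALB/cJ HFD (1 of day 5 and 1 of day 33), 31% and 37.8% of reads came from 6 islet hormone genes, against at most 0.0602% in the other 70. Their summed adipocyte markers stood at 108 and 109 CPM, against 2950 to 18400 CPM in the others, so adipose results are given with and without them. In 1 muscle library labelled C57Bl/6J RC day 33, the 6 slow fibre markers summed to 172 CPM, against at least 13500 CPM in the HFD libraries, and its fast fibre markers to 87300 CPM, the highest of the 72. Adipose libraries further fell into 40 with B cell markers summing to 436 to 3280 CPM and 32 with 3.72 to 79.9 CPM. In bulk tissue, fewer endothelial cells and less RNA per endothelial cell cannot be told apart.

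Per exon length, the leading members were water channel and growth factor genes. On RC, Aqp1, which encodes the water channel aquaporin-1, was the highest of the 34 in muscle, with a median level of 163 RPKM, which is CPM divided by exon length in kilobases (range 118 to 205 RPKM, n = 36). Vegfb followed with a median of 102 RPKM and Vegfa with 45.3 RPKM. Vegfa led in liver with a median of 24.2 RPKM (range 14.8 to 38 RPKM), before Aqp1 with 18 and Vegfb with 10.7 RPKM. The classical markers Cdh5 and Pecam1 stood at medians of 27.9 and 18.4 RPKM in muscle and 2.07 and 1.38 RPKM in liver. In adipose tissue Vegfb (median 51.9 RPKM, range 36.2 to 114 RPKM) and Aqp1 (51.4 RPKM, range 28.1 to 112 RPKM) lay within each other's range. The read totals cover only the genes in each tissue's table, so these levels order genes within a tissue.

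Promoter sequence is shown for 3 genes whose muscle levels carried the diet difference described next: Btnl9, Cldn5 and Kdr. The windows run from 250 bases before to 50 bases after the RefSeq start, on GRCm38.p6, at chr11:49187040-49187339 (minus strand), chr16:18776597-18776896 (plus strand) and chr5:75978406-75978705 (minus strand). Capitals mark AGGAAG or its reverse complement CTTCCT, the core that ETS factors such as ERG and FLI1 bind; overlap with other motifs was not examined.
Btnl9: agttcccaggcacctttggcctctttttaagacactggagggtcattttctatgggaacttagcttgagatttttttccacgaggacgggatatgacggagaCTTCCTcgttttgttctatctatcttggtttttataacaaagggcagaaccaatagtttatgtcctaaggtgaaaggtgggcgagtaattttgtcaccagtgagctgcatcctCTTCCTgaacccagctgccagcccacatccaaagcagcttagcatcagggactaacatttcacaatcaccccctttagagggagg
Cldn5: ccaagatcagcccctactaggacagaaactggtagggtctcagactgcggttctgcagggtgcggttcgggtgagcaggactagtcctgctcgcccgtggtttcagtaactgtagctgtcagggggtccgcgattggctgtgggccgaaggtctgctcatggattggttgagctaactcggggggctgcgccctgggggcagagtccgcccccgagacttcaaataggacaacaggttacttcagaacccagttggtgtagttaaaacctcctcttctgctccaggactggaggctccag
Kdr: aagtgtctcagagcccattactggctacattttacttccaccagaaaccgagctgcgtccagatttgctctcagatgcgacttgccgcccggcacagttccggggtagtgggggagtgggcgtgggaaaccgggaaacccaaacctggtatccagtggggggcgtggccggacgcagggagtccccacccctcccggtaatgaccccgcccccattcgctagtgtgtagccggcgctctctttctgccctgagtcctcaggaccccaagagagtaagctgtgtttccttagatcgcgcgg
The Btnl9 window held 2 copies of AGGAAG, and those of Cldn5 and Kdr held none. RefSeq windows matched 20 of the 34 members, and 13 of these (65%) held the core on either strand, against 38.4% of all 27025 genes with a window. The nuclear receptor half-site AGGTCA (reverse complement TGACCT) was in 6 of the 20, or 30%, against 18.1% of all genes, and in none of the 3 windows printed. A match describes the letters only.

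Of the 3 tissues, soleus muscle had the most members called for diet over all animals. Over all strains and days 16 members were higher on HFD and 1 was lower, which is 50% of the 34, where 17.4% of all tested genes were called (8.98% higher and 8.39% lower). The median log2 fold change was 0.154 over the members and 0 over all genes, and 27 of the 34 values were positive. The called genes stood in every role except the transcription factors: 6 of 12 junction and surface markers, 4 of 5 VEGF and neuropilin receptors, 1 of 2 ligands, 2 of 4 angiopoietin and Tie genes, 2 of 4 apelin and adrenomedullin genes and 2 of 4 secreted or capillary genes. No member separated the diets completely: the ranges of HFD and RC animals overlapped for all 34. The share of all genes that did so was not computed.

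Btnl9 (ENSMUSG00000040283, chr11:49165585-49187159, minus strand, GRCm38), a butyrophilin-like surface protein found on capillary endothelium, changed most. It ran from 11.7 to 35.4 CPM with a median of 21.3 CPM in 36 HFD muscles, and from 4.84 to 29.7 CPM with a median of 12.2 CPM in 36 RC muscles. Of the HFD animals 35 stood above the RC median. The level was 1.69-fold higher on HFD (log2 fold change 0.76 ± 0.07 SE, limma adjusted p = 2.5e-11). Cldn5 (ENSMUSG00000041378, chr16:18776847-18778262, plus strand), the sealing protein of endothelial tight junctions, ranged over 7.99 to 41.2 CPM (median 13.9) on HFD and over 4.65 to 15.3 CPM (median 9.89) on RC. Its highest HFD animals lay well above every RC animal, while the lower parts of both groups overlapped. The level was 1.552-fold higher on HFD (0.63 ± 0.11 SE, limma adjusted p = 1.959e-05).

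**Figure D1:**
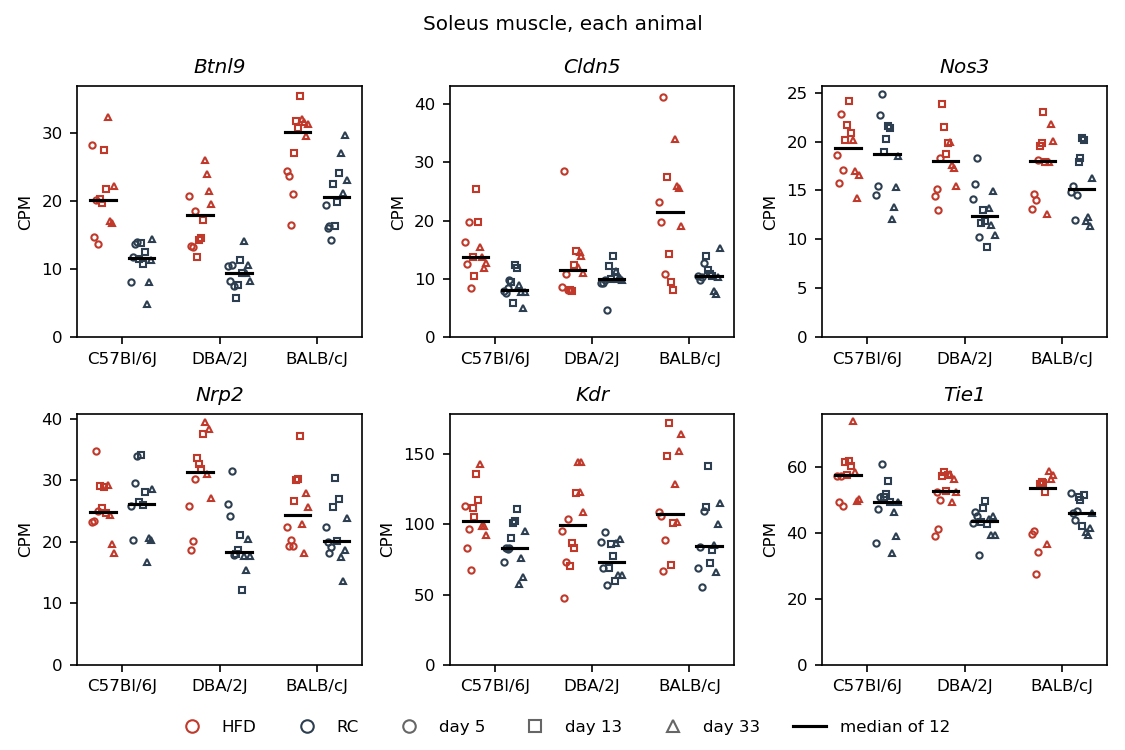
Levels in soleus muscle in CPM (vertical axes) of Btnl9, Cldn5, Nos3, Nrp2, Kdr and Tie1, 1 point per animal, HFD left of RC within each strain, with bars for medians of 12. Btnl9 shows the widest shift, with 35 of 36 HFD animals above the RC median, and the groups overlap in every gene.

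Among the receptors, Kdr, the main signalling receptor for VEGF-A, ran from 47.3 to 173 CPM (median 105) on HFD and from 55.7 to 142 CPM (median 83.1) on RC. The HFD group held both the lowest and the highest animal, yet 29 of its 36 animals stood above the RC median (log2 fold change 0.34 ± 0.08 SE, limma adjusted p = 0.0009817). Nrp2 (ENSMUSG00000025969, chr1:62703285-62818695, plus strand), a neuropilin co-receptor, ran from 18.1 to 39.4 CPM (median 26.2) on HFD and from 12.2 to 34.2 CPM (median 20.5) on RC, a rise of 0.27 ± 0.06 SE on the log2 scale (limma adjusted p = 0.0007023). Its relative Nrp1 (0.23 ± 0.06) and the lymphatic-type VEGF receptor gene Flt4 (0.15 ± 0.05) were called higher as well, with limma adjusted p = 0.002912 and 0.04606. Flt1, which encodes a VEGF receptor known as a decoy, was the receptor that was not called, with 0.05 ± 0.04 (limma adjusted p = 0.4483).

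Nos3, the endothelial nitric oxide synthase that relaxes vessels, ran from 12.6 to 24.2 CPM (median 18.2) on HFD and from 9.26 to 24.9 CPM (median 14.9) on RC. It was 1.194-fold higher on HFD (log2 fold change 0.26 ± 0.05 SE, limma adjusted p = 0.0003794), with 29 of 36 HFD animals above the RC median. Tie1 ran from 27.4 to 73.7 CPM (median 54.8) on HFD and from 33.4 to 60.7 CPM (median 46.0) on RC. Both ends of its range belonged to HFD animals, and its log2 fold change was 0.18 ± 0.04 SE (limma adjusted p = 0.0015). The other members called higher were the markers Emcn, Mmrn2, Cdh5 and Esam, the angiopoietin receptor Tek, the ligand Vegfa, the apelin receptor Aplnr and the secreted vessel factor Egfl7, with log2 fold changes between 0.12 ± 0.04 and 0.34 ± 0.12. Ramp2, which turns the receptor encoded by Calcrl into an adrenomedullin receptor, was the member that fell (-0.18 ± 0.05, limma adjusted p = 0.0149). Calcrl itself stood at -0.06 ± 0.05 and was not called.

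The remaining members were not called over all muscles. These included 6 of the 12 surface markers, from 0.15 ± 0.06 for Eng, a co-receptor for BMP and TGF-beta, to -0.005 ± 0.060 for Cd34 and -0.09 ± 0.06 for Aqp1, with Robo4 at 0.09 ± 0.04 and the phosphatase gene Ptprb at 0.06 ± 0.06 between them. Pecam1, a general endothelial marker, had a log2 fold change of 0.09 ± 0.04 (limma adjusted p = 0.1165), well under those of Btnl9 and Cldn5. The transcription factor genes Erg, Sox18 and Sox17 had values of 0.12 ± 0.04, 0.21 ± 0.09 and -0.002 ± 0.071. Angpt1, the ligand that stabilises vessels, and Angpt2, its antagonist, had 0.18 ± 0.07 and 0.16 ± 0.09. Vegfb, Apln, Gpihbp1 and Vwf had values of -0.01 ± 0.03, -0.01 ± 0.09, 0.06 ± 0.05 and 0.13 ± 0.08. Exons of Nos3, Egfl7, Eng, Cd34, Sox17 and Angpt1 overlap a gene on the opposite strand, and those of Ramp2, Egfl7 and Nrp1 a gene or microRNA on the same strand; how the counting treated such reads is not given in the sources used here.

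**Figure D2:**
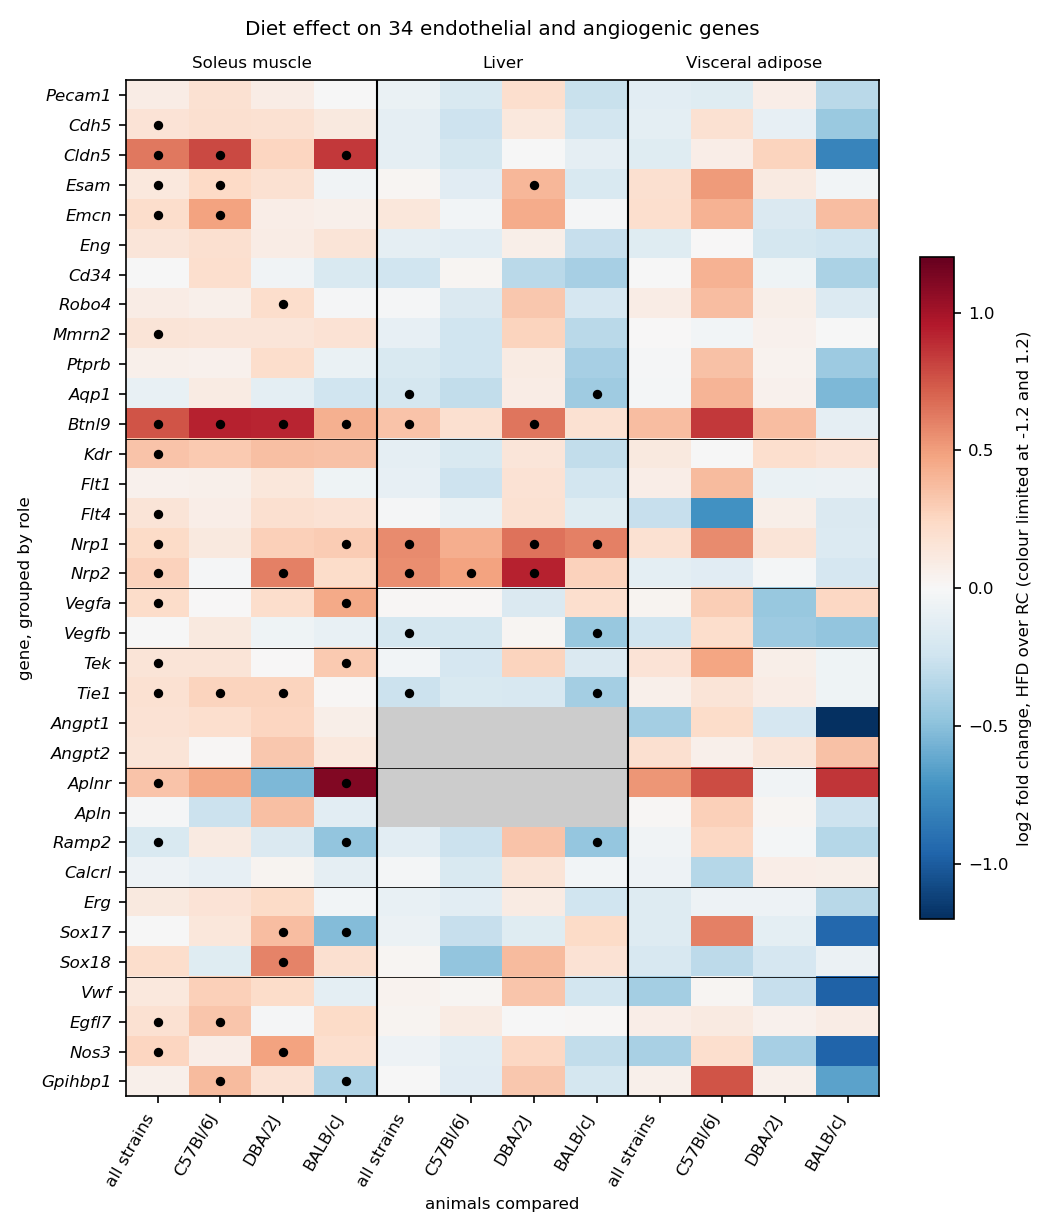
Log2 fold change of HFD minus RC for each member (down the page, grouped by role) in muscle, liver and adipose tissue, over all animals and in each strain, as colour, with dots for called values and grey for genes not in the table. Muscle holds the most called members (17 of 34 over all animals), liver 6 of 30 and adipose tissue 0 of 34.

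Genes of neighbouring lists moved in muscle too. Of 26 other endothelial genes 10 were higher on HFD and none was lower, with a median log2 fold change of 0.123; Cd93 (0.36), Arap3 (0.23), Bcl6b (0.65) and Rasip1 (0.21) had the smallest p. Of 28 other angiogenic ligands and receptors 5 were higher, among them Smad7 (0.26) and Vegfc (0.31), and Fgf2 was lower (-0.18). Of 7 measured genes of capillary lipid handling 3 were higher, the fatty acid transporter gene Cd36 (0.42) and the fatty acid binding protein genes Fabp4 (0.35) and Fabp5 (0.26). None of 14 hypoxia and PGC-1 genes that regulate Vegfa and none of 13 pericyte and smooth muscle markers was called. Markers of other cells moved beside the members: 3 of 7 B cell markers were higher (summed level 0.513 to 75.5 CPM on HFD, 0.184 to 24.3 CPM on RC), 4 of 5 erythroid markers were lower (127 to 539 CPM on HFD, 110 to 1000 CPM on RC) and 4 of 7 fast fibre markers were lower (22100 to 52300 CPM on HFD, 27700 to 87300 CPM on RC). Of T cell markers 1 of 6 and of adipocyte markers 2 of 7 were higher. Their part in the members' differences was not tested. Without the library of high fast fibre level 15 members were called, Flt4 and Aplnr being lost. Here and below, some counts from fits that leave a library out have no share of all genes beside them. Such counts do not set the members against all genes. The labels' animal numbers fall into 3 ranges, which hold different mixes of strains and days. In the low range (29 animals) 9 members were higher and 3 lower, where 9.87% of all genes were called. In the middle range (18 animals) 5 were higher, where 7.79% of all genes were called, and in the high range (20 animals) 1 was higher, where 1.2% were. Of those calls 10, 3 and 1 were among the 17 with the same sign. Btnl9 was called higher in all 3 ranges (0.99, 0.74 and 0.54). Ramp2 was called lower in the low range (-0.51, limma adjusted p = 9.5e-05) and higher in the middle range (0.28, limma adjusted p = 0.0366). Gpihbp1, not among the 17, was likewise called lower (-0.28) and higher (0.41), and Aqp1 was called lower in the low range (-0.42).

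The muscle calls were unevenly spread over the days. No day 13 animal had a number in the low range, so day and number range are partly mixed. Their parts in the values by day were not tested. These contrasts by day were added after the counts over all days had been seen. On day 5, 2 members were higher on HFD and none was lower, where 0.66% of all genes were called (0.33% in each direction): Btnl9 (0.62 ± 0.13 SE, limma adjusted p = 0.006816) and Cldn5 (0.76 ± 0.19 SE, limma adjusted p = 0.0354). On day 13, 4 were higher, Btnl9, Nos3, Nrp2 and the junction gene Esam, where 3.51% of all genes were called (2.52% higher and 0.997% lower). On day 33, 21 were higher and Ramp2 was lower, or 22 of 34, where 17.8% of all genes were called (8.96% higher and 8.81% lower). The day 5 count was 1 without any of 9 libraries and 4 without animal 3HF224, and the day 13 count was 1 without 2RC231 and 7 without 1RC210. For these fits too the share of all genes is not given. The members' median log2 fold change was -0.065 on day 5, 0.177 on day 13 and 0.333 on day 33, and 13, 30 and 29 values were positive; the all-gene medians were -0.002, -0.006 and 0.002.

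Kdr illustrates the pattern. On day 5 it ran from 47.3 to 113 CPM (median 92.2) on HFD and from 55.7 to 109 CPM (median 82.7) on RC. On day 13 the medians were 109 CPM on HFD and 88.2 CPM on RC. On day 33 it ran from 92.4 to 165 CPM (median 126) on HFD and from 57.6 to 115 CPM (median 80.8) on RC. The day 33 groups thus overlapped only between 92.4 and 115 CPM, and the log2 fold change there was 0.65 ± 0.13 SE (limma adjusted p = 0.0005689). On day 33 Btnl9 had 0.90 ± 0.13, Aplnr 1.04 ± 0.22 and Cldn5 0.87 ± 0.19, while Btnl9 alone was called on all 3 days. The test of the difference between days called 2 members, the guidance receptor gene Robo4 (adjusted p = 0.03562 by limma's F test) and Tie1 (0.04314), where 0.99% of all genes were called. Robo4 had log2 fold changes of -0.15, 0.17 and 0.23 and Tie1 of -0.06, 0.23 and 0.37 on days 5, 13 and 33. That count was unstable: leaving out single animals gave 0 to 11 members, and 47 of the 72 libraries moved it. With the range of animal numbers as a covariate it was 0. For the other members a change over days is therefore given as values, not as a tested difference.

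**Figure D3:**
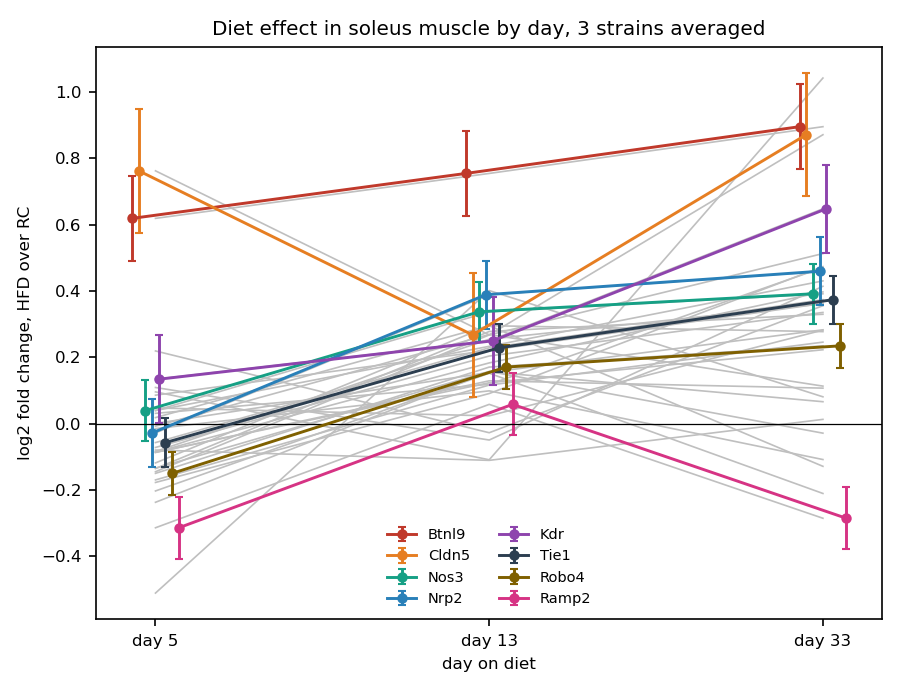
Log2 fold change of HFD minus RC in soleus muscle on days 5, 13 and 33, grey lines for all 34 members and coloured lines for 8 named ones, with SE bars. The median member stood at -0.065 on day 5 and 0.333 on day 33, and Btnl9 is at 0.62 or above throughout.

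Within strains, the members called in muscle differed. In C57Bl/6J 7 were higher on HFD and none was lower, where 5.75% of all genes were called (3.79% higher and 1.96% lower). In DBA/2J 7 were higher and none was lower, where 8.73% were called (5.28% higher and 3.45% lower). In BALB/cJ 6 were higher and 3 lower, where 11.5% were called (6.26% higher, 5.26% lower). Btnl9 was called in all 3 strains. The C57Bl/6J count was 4 without animal 1HF209. Its animals ran from 13.6 to 32.4 CPM on HFD and 4.84 to 14.4 CPM on RC in C57Bl/6J, where only a narrow band was shared (0.93 ± 0.13 SE, limma adjusted p = 4.642e-07). In DBA/2J they ran from 11.7 to 26 CPM on HFD and 5.72 to 14.2 CPM on RC (0.92 ± 0.13 SE, limma adjusted p = 2.548e-06). In BALB/cJ, which had the highest RC level, they ran from 16.5 to 35.4 CPM on HFD and 14.3 to 29.7 CPM on RC (0.43 ± 0.13 SE, limma adjusted p = 0.02327).

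In C57Bl/6J muscle Emcn, an endothelial sialomucin, and Cldn5 came next. Emcn ran from 23.5 to 33.1 CPM (median 27.2) on HFD and from 12.6 to 25.9 CPM (median 20.9) on RC, and every HFD animal was above the RC median (0.48 ± 0.10 SE, limma adjusted p = 0.001268). Cldn5 ran from 8.43 to 25.4 CPM (median 13.8) on HFD and from 4.95 to 12.3 CPM (median 8.16) on RC (0.80 ± 0.19 SE, limma adjusted p = 0.003853). In DBA/2J muscle the leading genes after Btnl9 were Nrp2 and Nos3. Nrp2 ran from 18.7 to 39.4 CPM (median 31.4) on HFD and from 12.2 to 31.5 CPM (median 18.3) on RC (0.61 ± 0.10 SE, limma adjusted p = 3.845e-05). All 12 HFD animals stood above the RC median for Nrp2, and likewise for Nos3 (13.0 to 23.9 CPM on HFD, 9.26 to 18.3 CPM on RC; 0.49 ± 0.09 SE, limma adjusted p = 0.0001915).

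In BALB/cJ muscle Aplnr, the receptor for the peptide apelin, ran from 9.34 to 37.1 CPM (median 26.1) on HFD and from 3.83 to 25.2 CPM (median 9.62) on RC. It was 2.164-fold higher on HFD (1.11 ± 0.22 SE, limma adjusted p = 0.000573), with 11 of 12 HFD animals above the RC median, and on day 33 alone the log2 fold change was 2.28. Cldn5 ran from 8.06 to 41.2 CPM (median 21.4) on HFD and from 7.39 to 15.3 CPM (median 10.5) on RC (0.85 ± 0.19 SE, limma adjusted p = 0.002116). Ramp2 ran from 16.4 to 40.5 CPM (median 25.8) on HFD and from 25.1 to 41.3 CPM (median 37.6) on RC, and 1 HFD animal was above the RC median (-0.47 ± 0.09 SE, limma adjusted p = 0.0007245). Gpihbp1 (-0.37 ± 0.09) and Sox17 (-0.52 ± 0.12) were the other members lower on HFD in this strain.

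The test of the difference between strains in muscle called 5 members, where 9.83% of all genes were called. They were Gpihbp1, which anchors lipoprotein lipase on capillaries (adjusted p = 0.0002651 by limma's F test), Aplnr (0.0007754), the arterial transcription factor gene Sox17 (0.001145), Ramp2 (0.008432) and Nrp2 (0.009055). Gpihbp1 ran from 36.7 to 55 CPM on HFD and 23.5 to 46.3 CPM on RC in C57Bl/6J, with every HFD animal above the RC median. In BALB/cJ it ran from 32.8 to 66 CPM on HFD and 37.8 to 81.4 CPM on RC, with 1 HFD animal above the RC median. The diet effect on Gpihbp1 in BALB/cJ was lower than in C57Bl/6J by -0.74 ± 0.13 and lower than in DBA/2J by -0.54 ± 0.13 (log2, SE). For Aplnr the DBA/2J effect differed from the C57Bl/6J effect by -1.0 ± 0.30 and the BALB/cJ effect from the DBA/2J effect by 1.66 ± 0.30. For Sox17 the BALB/cJ effect differed by -0.65 ± 0.17 from C57Bl/6J and by -0.89 ± 0.17 from DBA/2J. Ramp2 differed between BALB/cJ and C57Bl/6J (-0.58 ± 0.13) and Nrp2 between DBA/2J and C57Bl/6J (0.62 ± 0.14), and Sox18 too differed in that pair (0.74 ± 0.23), all with limma adjusted p under the threshold. Each pair had 3 called members, where 4.3% of all genes were called for DBA/2J minus C57Bl/6J, 6.52% for BALB/cJ minus C57Bl/6J and 3.07% for BALB/cJ minus DBA/2J. Btnl9 was not among the 5 (adjusted p = 0.07976 by limma's F test). Without the library of high fast fibre level the count was 8.

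In liver few members differed by diet, and the neuropilins led. Over all strains and days 3 members were higher and 3 lower on HFD, or 20% of the 30, where 21.2% of all tested genes were called, so the share of called members was close to that of all genes (10.9% higher and 10.3% lower). The median log2 fold change was -0.062 over the members and 0.007 over all genes. Nrp2 ran from 2.78 to 36.8 CPM (median 7.79) on HFD and from 2.98 to 13.2 CPM (median 6.36) on RC. The lower parts of both groups coincided, and the difference lay in the upper HFD animals (0.56 ± 0.07 SE, limma adjusted p = 3.376e-08). Nrp1 ran from 25.1 to 233 CPM (median 66.3) on HFD and from 21.8 to 77.0 CPM (median 46.1) on RC, and 30 of 36 HFD animals were above the RC median (0.57 ± 0.10 SE, limma adjusted p = 3.351e-05).

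Btnl9 was higher in liver as well, from 1.19 to 6.08 CPM (median 2.84) on HFD and from 0.674 to 5.34 CPM (median 2.43) on RC (0.34 ± 0.09 SE, limma adjusted p = 0.003536). Tie1 was lower, from 2.47 to 14.7 CPM (median 9.36) on HFD and from 6.92 to 14.6 CPM (median 10.7) on RC (-0.26 ± 0.06 SE, limma adjusted p = 0.0009392). The groups of both genes overlapped over most of their range. Vegfb, a VEGF-family ligand that binds FLT1, was lower at -0.21 ± 0.06 SE (8.02 to 23.4 CPM on HFD, 11.2 to 22 CPM on RC; limma adjusted p = 0.006351). Aqp1 was lower at -0.21 ± 0.07 SE (15.7 to 66.4 CPM on HFD, 30.4 to 73 CPM on RC; limma adjusted p = 0.01914). The junction genes Cdh5, Pecam1 and Cldn5 and the receptor genes Kdr and Flt1 had values between -0.11 and -0.08 and were not called. Of 15 markers of sinusoidal endothelium, Wnt9b was called lower (-0.54) and the other 14 were not called; their summed level ran from 76.6 to 344 CPM on HFD and from 137 to 349 CPM on RC. Beside the members, 6 of 7 hepatocyte markers and 3 of 5 erythroid markers were lower on HFD, at summed levels of 63200 to 130000 and 126 to 610 CPM on HFD and 87600 to 132000 and 186 to 1180 CPM on RC; their part in the result was not tested. Within the low range of animal numbers 2 members were higher and 3 lower, a smaller share of the 30 than the 24.3% of all genes called there; Ramp2 (-0.42, limma adjusted p = 0.0472), one of these, was not among the 6. In the middle range limma called no member, where 0.944% of all genes were called and 12 members had an unadjusted p under 0.05. In the high range Nrp1 was called higher (0.48), where 1.75% of all genes were. All 6 kept their sign in each range, but sizes differed: Nrp2 had 1.09, 0.21 and 0.19 in the low, middle and high ranges.

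By strain, 1 member was called in C57Bl/6J liver, Nrp2 (0.48 ± 0.13 SE, limma adjusted p = 0.02409), where 2.31% of all genes were called (1.02% higher and 1.28% lower); it was lost when any of 7 animals was left out. In DBA/2J liver 4 members were higher, where 21.6% of all genes were called (10.6% higher and 11% lower). Nrp2 there ran from 7.80 to 27.5 CPM (median 21.5) on HFD and from 4.85 to 13.2 CPM (median 9.64) on RC, a 1.902-fold rise (0.93 ± 0.13 SE, limma adjusted p = 1.172e-07). Btnl9 (0.65 ± 0.15), Nrp1 (0.65 ± 0.18) and Esam (0.40 ± 0.13) were the others. In BALB/cJ liver Nrp1 was higher and 4 members were lower, where 14.8% of all genes were called (7.89% higher and 6.91% lower): Vegfb (-0.45 ± 0.10), Tie1 (-0.41 ± 0.10), Aqp1 (-0.42 ± 0.12) and Ramp2 (-0.46 ± 0.16). The lowest HFD levels of Tie1 (2.47 CPM), Aqp1 (15.7 CPM) and Ramp2 (0.978 CPM) lay in BALB/cJ on day 5. On RC the lowest BALB/cJ levels were 7.33, 31.6 and 3.58 CPM. Summed sinusoidal markers were also lowest in BALB/cJ HFD on day 5, at 76.6 CPM, against at least 137 CPM on RC. The part of these low levels in the calls was not tested. The difference between strains called 6 members, where 15.7% of all genes were called: Ramp2, Nrp2, Sox18, Esam, Mmrn2 and Vegfb, with adjusted p from 0.0187 to 0.04935 by limma's F test. In 5 of the 6 the BALB/cJ effect was below the DBA/2J effect, by -0.47 ± 0.15 to -0.80 ± 0.22; with Aqp1, 6 members were called in that pair, all lower, where 8.61% of all genes were called. BALB/cJ and C57Bl/6J did not differ in a called member, where 4.04% of all genes were called and 1 member had an unadjusted limma p under 0.05. Sox18 differed between DBA/2J and C57Bl/6J (0.85 ± 0.25), where 10.3% of all genes were called. These counts moved with single animals. The share of all genes called in the fits that follow is not given, so they do not set the members against all genes. Without 3HF224, a BALB/cJ HFD day 5 animal, 11 members were called in BALB/cJ, 7 in DBA/2J and 10 between strains. Without 3HF203, 3 were called in BALB/cJ. Between strains the count was 3 without any of 6 other animals (1HF225, 1RC256, 2HF202, 2HF211, 2HF253 or 2RC231).

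Between days, Nrp2 was the liver member whose diet effect differed (adjusted p = 0.003015 by limma's F test), where 3.35% of all genes were called. On day 5 it ran from 2.78 to 27.5 CPM (median 9.37) on HFD and from 3.26 to 13.2 CPM (median 5.36) on RC. On day 13 it ran from 3.81 to 13.0 CPM (median 5.97) on HFD and from 2.98 to 9.96 CPM (median 6.51) on RC. On day 33 it ran from 5.79 to 36.8 CPM (median 15.3) on HFD and from 3.51 to 11.5 CPM (median 7.65) on RC. The log2 fold changes were 0.63 ± 0.13, 0.05 ± 0.13 and 0.99 ± 0.13 on days 5, 13 and 33, lowest on the middle day. No day 13 animal had a number in the low range, where Nrp2 had 1.09 (limma adjusted p = 4.21e-08). In the middle and high ranges it had 0.21 and 0.19 (limma adjusted p = 0.629 and 0.436). Day and number range are thus partly mixed, and their parts in this difference were not tested. Without 3HF224 2 members were called between days. Within each day 3 members (Nrp1 and Nrp2 higher, Tie1 lower), 0 members and 2 members (Nrp1 and Nrp2 higher) were called on days 5, 13 and 33, where 6.48%, 2.05% and 16.3% of all genes were called. On day 13, 5 members had an unadjusted limma p under 0.05. Without 3HF224 the day 5 count was 5.

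In visceral adipose tissue limma called no member for diet over all animals, within a strain over all days, on a day over all strains, or between strains or days. Members with an unadjusted limma p under 0.05 numbered 4 over all animals, 0 in DBA/2J, 8 in BALB/cJ and 6 in C57Bl/6J, 1, 2 and 5 on days 5, 13 and 33, and 7 between strains and 2 between days. The share of all genes called was 2.67% over all animals, 0.411% in DBA/2J, 0.435% in BALB/cJ, 0.115% in C57Bl/6J, 0.0%, 0.0% and 1.51% on days 5, 13 and 33, 0.0846% between strains and 0.0% between days. Btnl9 ran from 22.5 to 138 CPM (median 48.7) on HFD and from 16.9 to 131 CPM (median 39.4) on RC (0.37 ± 0.15 SE, limma adjusted p = 0.1895). Aplnr had a log2 fold change of 0.53 ± 0.19 (limma adjusted p = 0.1178) and Angpt1 of -0.41 ± 0.23 (limma adjusted p = 0.3905). The spread was wide: Angpt1 covered 0.277 to 58.8 CPM on HFD and 1.41 to 46.8 CPM on RC. Without the 2 islet hormone libraries the diet counts were again 0, apart from Vwf (von Willebrand factor, which captures platelets), lower on day 33 at -0.96 (limma adjusted p = 0.04613), where 2.82% of all genes were called. Over all animals 3.59% of all genes were then called, with 1.0% in DBA/2J, 0.0% in BALB/cJ and 0.236% in C57Bl/6J. Within BALB/cJ on day 33, 4 HFD against 4 RC animals, 4 members were lower and none was higher, where 10.7% of all genes were called. Angpt1 there had -2.81 ± 0.68 (limma adjusted p = 0.01465) and Vwf -2.17 ± 0.55 (limma adjusted p = 0.01858), and the lowest Angpt1 level on HFD, 0.277 CPM, was that of the islet hormone library. Without the 2 islet hormone libraries 1 member was called, Vwf (-1.92 ± 0.51, limma adjusted p = 0.04367), where 1.81% of all genes were; Angpt1 had -1.93 ± 0.64 (limma adjusted p = 0.06603). The B cell marker classes were uneven across groups: 8 of 12 HFD and 9 of 12 RC libraries were low in DBA/2J, 4 and 2 in C57Bl/6J, and 5 and 4 in BALB/cJ. With that class as a covariate and without the 2 libraries, 4 members were called over all animals, a smaller share of the 34 than the 15.4% of all genes called in that fit. Vegfb was lower (-0.28), and Nrp1 (0.20), Btnl9 (0.35) and Aplnr (0.54) were higher.

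**Figure D4:**
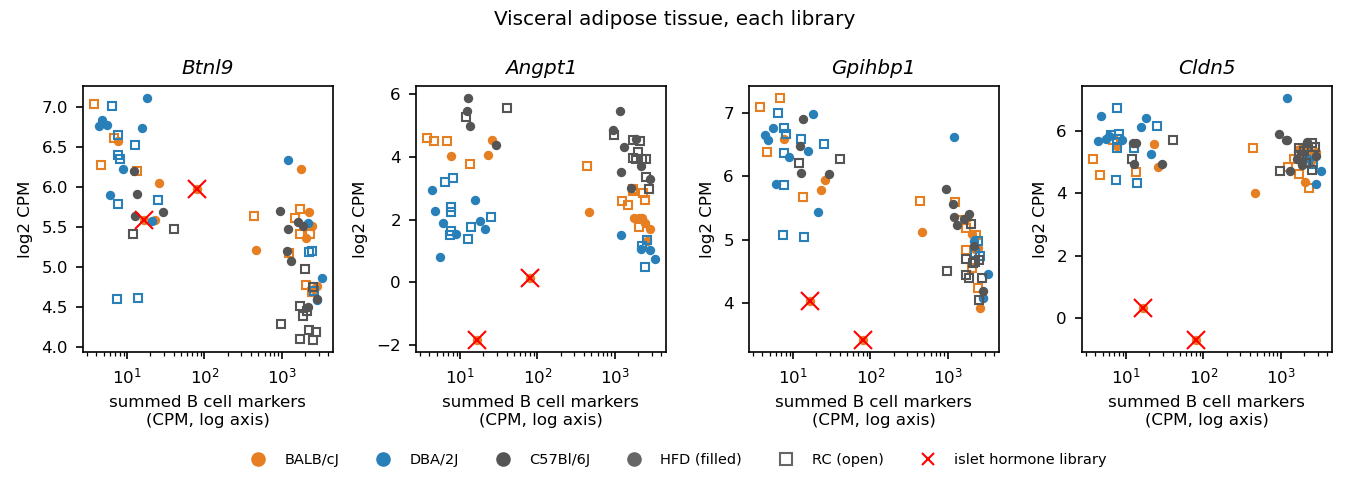
Level of Btnl9, Angpt1, Gpihbp1 and Cldn5 in log2 CPM (vertical axes) against the summed B cell marker level in CPM (horizontal axes, log scale) in 72 visceral adipose libraries, with red crosses for the 2 libraries rich in islet hormone transcripts. Libraries fall into 40 of high and 32 of low B cell marker level, and the crosses lie at the bottom for Cldn5.

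Strain differences on RC were larger than diet differences for many members. In muscle, DBA/2J had 5 members higher and 12 lower than C57Bl/6J, where 37% of all genes were called (17.6% higher and 19.4% lower). BALB/cJ had 10 higher and 5 lower than C57Bl/6J, where 44.5% of all genes were called (21.2% higher and 23.3% lower). Set against DBA/2J, BALB/cJ had 15 higher and 6 lower, where 40.4% of all genes were called (19.8% higher and 20.6% lower). The submitters' notes name a single genome build, that of C57BL/6J mice, so variants of DBA/2J and BALB/cJ can enter these values.

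Angpt1 ran from 84.8 to 133 CPM (median 104) in DBA/2J muscle, and from 16.1 to 57.9 CPM (median 43.4) in C57Bl/6J muscle. The groups did not overlap, and the level was 2.557-fold higher in DBA/2J (1.35 ± 0.12 SE, limma adjusted p = 1.976e-14). BALB/cJ, at 34.2 to 53.7 CPM (median 38.9), lay apart from DBA/2J in the same way (-1.40 ± 0.12 SE, limma adjusted p = 7.166e-15). Aplnr followed that order, with 17.1 to 35.2 CPM (median 24.2) in DBA/2J and 6.66 to 14 CPM (median 9.32) in C57Bl/6J, again without overlap (1.30 ± 0.22 SE, limma adjusted p = 1.32e-06). Vwf ran the other way, with 9.76 to 30.2 CPM (median 21.8) in DBA/2J and 20.2 to 50.7 CPM (median 40.5) in C57Bl/6J (-0.86 ± 0.13 SE, limma adjusted p = 3.9e-07). Robo4, which guards vessel integrity, was lower in DBA/2J too (13.9 to 20.8 CPM against 19.1 to 35.1 CPM in C57Bl/6J; -0.59 ± 0.07 SE, limma adjusted p = 3.922e-11).

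BALB/cJ muscle stood out by Btnl9 and Gpihbp1. Btnl9 ran from 14.3 to 29.7 CPM (median 20.6) in BALB/cJ and from 4.84 to 14.4 CPM (median 11.7) in C57Bl/6J, so the groups met only at their edges (0.91 ± 0.13 SE, limma adjusted p = 2.897e-08). Against DBA/2J (5.72 to 14.2 CPM) Btnl9 did not overlap (1.15 ± 0.13 SE, limma adjusted p = 5.918e-11), and Vwf (31.9 to 69.8 CPM in BALB/cJ) was higher as well (1.02 ± 0.13 SE). Gpihbp1 ran from 37.8 to 81.4 CPM (median 65.3) in BALB/cJ and from 23.5 to 46.3 CPM (median 32.8) in C57Bl/6J (0.86 ± 0.09 SE, limma adjusted p = 8.333e-12). Apln, the apelin ligand, was lower in BALB/cJ (1.10 to 4.67 CPM) than in C57Bl/6J (3.03 to 7.13 CPM; -0.93 ± 0.16 SE, limma adjusted p = 3.5e-06), and Nrp1 was lower by -0.30 ± 0.10. Apln was also the muscle member that changed with time on RC, with 1.10 to 5.70 CPM (median 2.52) on day 33 and 2.26 to 7.13 CPM (median 4.52) on day 5 (-0.75 ± 0.16 SE, limma adjusted p = 0.005921), where 2.85% of all genes were called; liver and adipose tissue had no called member for that contrast, where 0.666% and 0.0181% of all genes were called and 5 and 0 members had an unadjusted limma p under 0.05. The muscle count was 5 without animal 2RC203 and 3 without 1RC256.

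**Figure D5:**
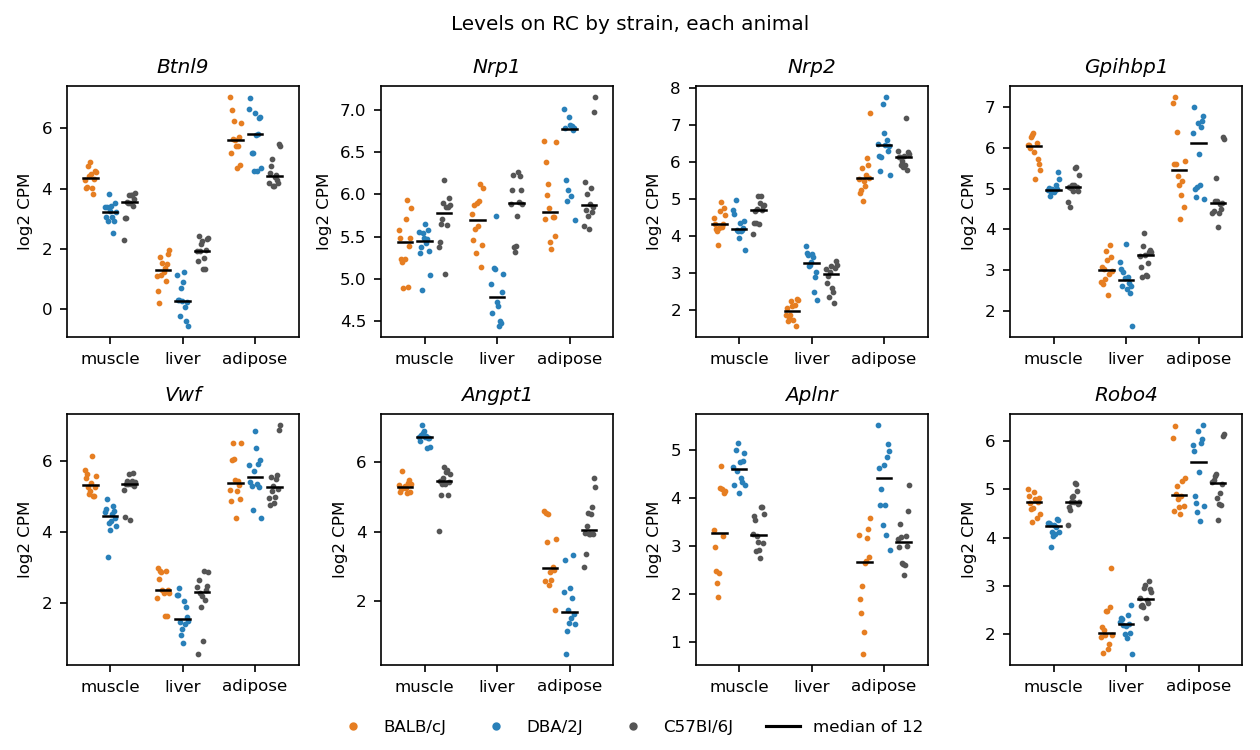
Levels on RC in log2 CPM (vertical axes) of 8 members in muscle, liver and adipose tissue, 1 point per animal and 12 animals per strain, with bars for medians. Angpt1 in muscle separates DBA/2J (84.8 to 133 CPM) from both other strains.

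In liver on RC, 18 members differed between DBA/2J and C57Bl/6J (4 higher and 14 lower), where 48.1% of all genes did (23.9% higher and 24.2% lower). With the range of animal numbers as a covariate 7 members were called, and the share of all genes in that fit is not given. The ranges hold different mixes of strains, and their part in the 18 was not tested. Btnl9 ran from 0.674 to 2.36 CPM (median 1.19) in DBA/2J and from 2.5 to 5.34 CPM (median 3.81) in C57Bl/6J, with no overlap (-1.62 ± 0.15 SE, limma adjusted p = 1.335e-13). Nrp1 was lower in DBA/2J as well (21.8 to 53.8 CPM against 40 to 77.0 CPM in C57Bl/6J; -1.0 ± 0.18 SE, limma adjusted p = 3.788e-06), while Nos3 (0.60 ± 0.15) and Tie1 (0.42 ± 0.10) were higher. Between BALB/cJ and C57Bl/6J 14 were called, 1 higher and 13 lower, where 46.8% of all genes were (22.9% higher and 23.9% lower). Nrp2 (2.98 to 4.92 CPM in BALB/cJ against 4.52 to 9.96 CPM in C57Bl/6J; -0.89 ± 0.13 SE) and Sox17 (-0.91 ± 0.21) were lowest, and Cd34 was higher (0.52 ± 0.22). Between BALB/cJ and DBA/2J 12 were called, 4 higher and 8 lower, where 42.1% of all genes were (20.6% higher and 21.5% lower); Nrp2 (-1.21 ± 0.13) and Mmrn2 (-0.70 ± 0.14) were lowest and Btnl9 (0.94 ± 0.15) and Nrp1 (0.83 ± 0.18) highest. The members' medians were -0.313, -0.305 and -0.006 in these 3 comparisons, beside all-gene medians of -0.012, -0.014 and -0.007. Markers of sinusoidal endothelium moved with them: relative to C57Bl/6J, 11 of 15 were lower and 1 was higher in DBA/2J, and 8 of 15 were lower in BALB/cJ. Their part in the result was not tested.

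In adipose tissue on RC, 11 members differed between DBA/2J and C57Bl/6J (8 higher and 3 lower), where 41.7% of all genes did (21.2% higher and 20.5% lower). Angpt1 ran from 1.41 to 10 CPM (median 3.23) in DBA/2J and from 7.89 to 46.8 CPM (median 16.6) in C57Bl/6J, a 5.132-fold lower level in DBA/2J (-2.36 ± 0.39 SE, limma adjusted p = 5e-06). The order of these strains for Angpt1 was thus opposite to that in muscle. Btnl9 ran from 24.2 to 129 CPM (median 56) in DBA/2J and from 16.9 to 44.4 CPM (median 21.3) in C57Bl/6J (1.17 ± 0.26 SE, limma adjusted p = 0.0004235). Aplnr was higher (1.17 ± 0.32) and Flt4 lower (-0.739 ± 0.205) in DBA/2J. The count was 22, 21, 17 and 21 without the animals 1RC254, 1RC256, 2RC203 and 2RC231, and the 1 member called between BALB/cJ and C57Bl/6J became up to 3 without any of 11 libraries. The share of all genes called in those fits is not given, so these counts do not set the members against all genes. Between BALB/cJ and C57Bl/6J Btnl9 was the called member (1.15 ± 0.26 SE, limma adjusted p = 0.0009413), where 11.2% of all genes were called (6.42% higher and 4.82% lower). Between BALB/cJ and DBA/2J Angpt1 was higher (1.4 ± 0.39) and 9 members were lower, where 16.2% of all genes were called (7.33% higher and 8.92% lower), among them Aplnr (-1.85 ± 0.32) and Apln (-1.32 ± 0.40).

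These adipose counts depend on the libraries used. Without the 2 islet hormone libraries 13, 5 and 12 members were called in the same order of pairs, where 51.4%, 16% and 24.8% of all genes were. As both are HFD libraries, the differences on RC stayed the same and only the estimated spread changed. Restricted to libraries of low B cell marker level and without those 2, the counts were 2, 3 and 6, where 12.8%, 13.9% and 24.8% of all genes were called. On RC that subset held 2 C57Bl/6J and 9 DBA/2J libraries. Angpt1 was lower in DBA/2J in that subset as well, with a log2 difference of -3.34 to C57Bl/6J. Btnl9 there had 0.41 (limma adjusted p = 0.5414) and Aplnr 0.31 (limma adjusted p = 0.779) between DBA/2J and C57Bl/6J and were not called. With 2 C57Bl/6J libraries, a missing call does not show that a strain difference was absent.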

How the data were processed

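Liver, soleus muscle and visceral adipose RNA of 72 mice was sequenced as 100-base single reads from stranded mRNA libraries, per the labels' protocols. STAR 2.5.3a, edgeR and GRCm38 are named in the submitters' processing notes; how reads were counted, on which annotation and strand, is not given in the sources used here. Each tissue has 1 deposited table of log2 CPM per gene. Each header lacks a cell, so a title names the column after it. Steps of the low values gave back whole reads for 100% of values under 2000 reads within 0.05 reads. RPKM (GENCODE M21 exon lengths) and summed marker CPM were computed from these reads, while the CPM of members came from the deposited values. Of 224 samples 216 had a column; 8 further liver libraries were not analysed here.

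Fits used limma 3.58.1 in R 4.3.3 with a variance trend, 1 fit per tissue over 18 group means, two-sided, with Benjamini-Hochberg adjustment over all tested genes. Fits restricted to adipose libraries of low B cell marker level used means of strain and diet instead, with day added. Genes needed a log2 CPM of at least 0 in 4 animals. The fit was tested on simulated data. Python 3.11.15 and matplotlib 3.10.9 wrote tables and figures. Promoter windows came from RefSeq. The members and lists were chosen with earlier results of these data known. Genes named with full values were, per tissue, at most the 6 called members of smallest adjusted p over all animals, 3 per strain, 4 between strains, and the 2 highest and 2 lowest per strain pair; Kdr by day and adipose genes that were not called were named after their values were seen. Alternatives covered filters, prior count, normalization, number block and range, and libraries left out; those on lymphoid markers, islet hormones, the fast fibre library and days were added after the data were seen.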

Additional observations from a re-analysis of the deposited data

Results flagged for a closer look

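The diet effect differed between strains for 5 members in muscle by limma's F test, with adjusted p = 0.0002651 for Gpihbp1, 0.0007754 for Aplnr, 0.001145 for Sox17, 0.008432 for Ramp2 and 0.009055 for Nrp2. The log2 fold changes of HFD minus RC, with C57Bl/6J before DBA/2J and BALB/cJ last, were 0.38, 0.18 and -0.37 for Gpihbp1, 0.46, -0.54 and 1.11 for Aplnr, 0.14, 0.37 and -0.52 for Sox17, 0.11, -0.18 and -0.47 for Ramp2, and -0.01, 0.61 and 0.22 for Nrp2. In liver the same test gave adjusted p = 0.0187 for Ramp2, 0.02073 for Nrp2, 0.02853 for Sox18, 0.03491 for Esam, 0.04903 for Mmrn2 and 0.04935 for Vegfb by limma. Between days it gave 0.003015 for Nrp2 in liver, and 0.03562 for Robo4 and 0.04314 for Tie1 in muscle, by limma's F test.

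In the 2 adipose libraries labelled BALB/cJ HFD described above, islet hormone transcripts reached 37.8% of reads, against at most 0.0602% in the other 70 libraries.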

How the results depend on the processing

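Counts are called members out of 34, or 30 in liver, and pairs are named as in the report. They show how the calls moved with the processing. The share of all genes called can move too and is not given beside each, so these counts do not set the members against all genes. Over all animals, leaving out single animals gave 14 to 20 in muscle (17 with all) and 6 in liver each time. Of 223 member calls 223 held with a prior count of 1 read and 221 without a variance trend. With quantile normalization 219 held, and with the range of animal numbers as a covariate 187 held. The cause of these losses was not tested. All 223 held with no filter too, but that fit was nearly the same one and is no check. The filter had dropped a single adipose gene, which was not a member, and nothing from the other tissues. The stricter filter tested fewer members by construction, and the 153 calls on members it kept all held. Its counts in liver were 3 over all animals, 0 in C57Bl/6J, 1 in DBA/2J, 3 in BALB/cJ, 2 between strains, 0 between days, 1 on day 5 and 1 on day 33, and 5, 4 and 2 for DBA/2J minus C57Bl/6J, BALB/cJ minus C57Bl/6J and BALB/cJ minus DBA/2J on RC. In muscle they were 0 for time on RC and 1 on day 5, and in adipose tissue 7 for DBA/2J minus C57Bl/6J and 6 for BALB/cJ minus DBA/2J.

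Fits of a strain's own animals gave 0, 7 and 3 in liver of C57Bl/6J, DBA/2J and BALB/cJ (1, 4 and 5 otherwise). Quantile normalization gave 1 in muscle between days and 2 in adipose BALB/cJ minus C57Bl/6J. The number range gave 7 in liver DBA/2J minus C57Bl/6J (18 otherwise), 0 in muscle between days, and 2 in adipose tissue both in BALB/cJ and on day 33. Without the fast fibre library muscle had 7 on day 13, 1 between days and 8 between strains. Same-numbered animals deviated together (correlation over 0.1) in 12, 7 and 4 of 20 pairs in liver, muscle and adipose tissue. Pairs ran from -0.429 to 0.586 in liver, from -0.85 to 0.761 in muscle and from -0.826 to 0.616 in adipose tissue. The correlation within number blocks was 0.143, 0.044 and -0.236. The main fits did not take the numbers to pair samples, and whether some pairs are real, in liver above all, was not tested. With the number as a block 222 of 223 calls held, and the liver day 13 count was 1.

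In adipose tissue, without the 2 islet hormone libraries the count was 5 for BALB/cJ minus C57Bl/6J and 1 on day 33. All 22 strain calls held. Both libraries are HFD, so the strain differences on RC were unchanged by construction and only their estimated spread changed. The lymphoid class as a covariate gave 3 over all animals, 8 in BALB/cJ, 2 on day 33, 4 for DBA/2J minus C57Bl/6J, 6 for BALB/cJ minus C57Bl/6J and 5 for BALB/cJ minus DBA/2J. With the 2 libraries also left out it gave 4 over all animals, where 15.4% of all genes were called. That fit gave 2 in C57Bl/6J, 1 in BALB/cJ, 2 on day 33, 6 for DBA/2J minus C57Bl/6J and 12 for BALB/cJ minus C57Bl/6J. The low class alone gave 1 over all animals, 12 in BALB/cJ, and 1, 0 and 4 for the 3 pairs in that order. Without the 2 libraries it gave 2 over all animals, 1 in DBA/2J, and 2, 3 and 6 for the pairs. The BALB/cJ count was then 0, as in the fit of all libraries. For DBA/2J minus C57Bl/6J 5 members changed sign there: Gpihbp1 to -0.0733 and -0.1376 without the 2 libraries, Sox17 to -0.2451 and -0.3318, Angpt2 to -0.2149 and -0.2106, Mmrn2 to -0.2227 and -0.2311, and Sox18 to -0.0396 and -0.0548. None of these values was called (limma adjusted p from 0.625 to 0.9803), and C57Bl/6J had 2 RC libraries there, so a reversal is not shown. The cause was not tested.

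Leaving out single animals gave 3 to 11, 0 to 1 and 3 to 7 in liver of BALB/cJ, C57Bl/6J and DBA/2J, 0 to 1 on day 13, 2 to 5 on day 5, 1 to 2 between days and 3 to 10 between strains. In muscle it gave 4 to 8 in C57Bl/6J, 1 to 4 on day 5, 1 to 7 on day 13, 0 to 11 between days, 5 to 8 between strains and 1 to 5 for time on RC. In adipose tissue it gave 0 to 4 in BALB/cJ (4, 2 and 1 without animals 3HF202, 3HF224 and 3HF258), 0 to 1 on day 33 (1 without 3HF201), 1 to 3 for BALB/cJ minus C57Bl/6J and 9 to 22 for DBA/2J minus C57Bl/6J. No library met the planned rule of leaving out those over 10 times the median B cell marker level in adipose tissue, so it was not run there.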

Other observations

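Member levels in the 2 adipose libraries rich in islet hormone transcripts were set against the other 22 BALB/cJ adipose libraries, with no test. Of the 34 members 12 lay below the range of the other 22 in both libraries, 2 above it and 20 overlapped it. The share of all genes outside that range was not computed, so these counts cannot be read as a trait of the members. Emcn stood at 97.9 and 150 CPM, against 13.1 to 55.8 CPM in the others, and Vegfa at 387 and 485 CPM, against 58 to 327 CPM. Cldn5 stood at 0.61 and 1.25 CPM, against 16 to 51.6 CPM, and Nos3 at 3.66 and 6.28 CPM, against 14.8 to 94.3 CPM. Sox17, Vwf, Pecam1 and Angpt1 were among the members below the range as well.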
